A study of Mus musculus with 8 samples.

Results

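The interferon regulatory factor genes are described here in RNA of microglia sorted from the mouse brain at postnatal day 60. The members were taken by gene symbol, by a rule that uses no measured value: *Irf1*, *Irf2*, *Irf3*, *Irf4*, *Irf5*, *Irf7*, *Irf8* and *Irf9*, which are 8 of 55573 listed genes. The family and the gene lists used below were chosen with earlier results of these data known. All 8 members passed the filter on low counts, as did 20153 genes in all. The libraries came from 4 mutant mice, labelled SmadKO, that carried floxed *Smad2* and *Smad3* alleles and *Cx3cr1Cre* (*Smad2/3* fl/fl;*Cx3cr1Cre*), and from 4 controls labelled WT. SMAD2 and SMAD3 carry the canonical TGFβ signal to the nucleus, and the comparison asks what microglia express when both genes are floxed and Cre is present. According to the methods of the study, its breeding gave no mice free of transgenes and controls generally carried 1 floxed allele with Cre, so the WT label may stand for such mice. *Cx3cr1Cre* is active in microglia and also in other macrophages and monocyte-derived cells. The study describes a Percoll gradient followed by a sort on CD45 and CD11b. Its methods name TdTomato-positive cells as those examined for both markers, and do not say whether this held for the controls.

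Interferon regulatory factors are transcription factors that bind GAAA repeats through a shared DNA-binding domain. IRF3, IRF5 and IRF7 lie latent until a sensor of foreign or misplaced nucleic acid leads to their phosphorylation, after which they switch on interferon genes. IRF9 acts below the interferon receptor and binds the interferon-stimulated response element (ISRE), IRF1 and IRF2 act as activator and repressor at many of the same sites, and IRF4 and IRF8 bind mostly with partners such as PU.1. IRF8 is needed for the formation of microglia from yolk sac precursors and is kept in adult microglia.

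Libraries held 35639502 to 41946479 counts. *Smad3* was lower in mutants (log2 fold change -1.33, SE 0.36, adjusted p = 0.0429 by edgeR), between 39.5 and 56.9 CPM (counts scaled to library size) across controls and between 9.61 and 35.1 CPM across mutants, where mutant 3 held the 35.1. *Smad2* did not pass (-0.34, SE 0.22, adjusted p = 0.34). Counts summed over a whole gene do not show whether the floxed exons were lost. All 4 controls held the X-linked RNA *Xist* (99.5 to 183 CPM) and all 4 mutants held the Y-linked *Ddx3y* (9.74 to 59.8 CPM, against at most 0.224 in controls), so genotype and sex cannot be told apart in any comparison that follows. Of 10 microglia markers, 8 were lower and none higher in mutants (7.97% and 4.36% of all tested genes). Their summed level was 33971 to 51448 CPM in controls and 9115 to 12042 CPM in mutants. *Sall1* went from 165 to 239 CPM in controls to 0.208 to 5.08 CPM in mutants and *Siglech* from 1689 to 2951 CPM to 4.41 to 38.8 CPM, while *C1qa* and *Aif1* did not pass the test. Of 5 markers of border-associated macrophages, 4 were higher (4.36% of all tested genes). Their summed level was 26.4 to 36.6 CPM in controls and 1565 to 2432 CPM in mutants. The summed levels of neuron and oligodendrocyte markers were highest in replicate 1 of both groups.

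Mutants had less *Irf8* and *Irf5* RNA and more *Irf7* RNA than controls, and the other 5 members did not pass the test. *Irf8* was 2.68-fold lower, *Irf5* was 1.67-fold lower and *Irf7* was 5.14-fold higher, by edgeR's quasi-likelihood test at an adjusted p under 0.05. Thus 3 of 8 members were called, where 12.3% of all tested genes were. By direction, 1 of 8 was called higher (4.36% of tested genes) and 2 of 8 lower (7.97%). Of the 2 lower calls, that of *Irf5* (adjusted p = 0.0481 by edgeR) held in 3 alternative fits and was lost in 12. The called members were also those whose groups did not overlap in CPM, which was so for 3 of 8 members and for 22.1% of tested genes. The median log2 fold change was -0.07 over the 8 members and 0.01 over all tested genes. In bulk RNA of sorted cells, fewer cells of one kind and less RNA per cell cannot be told apart.

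**Figure D1:**
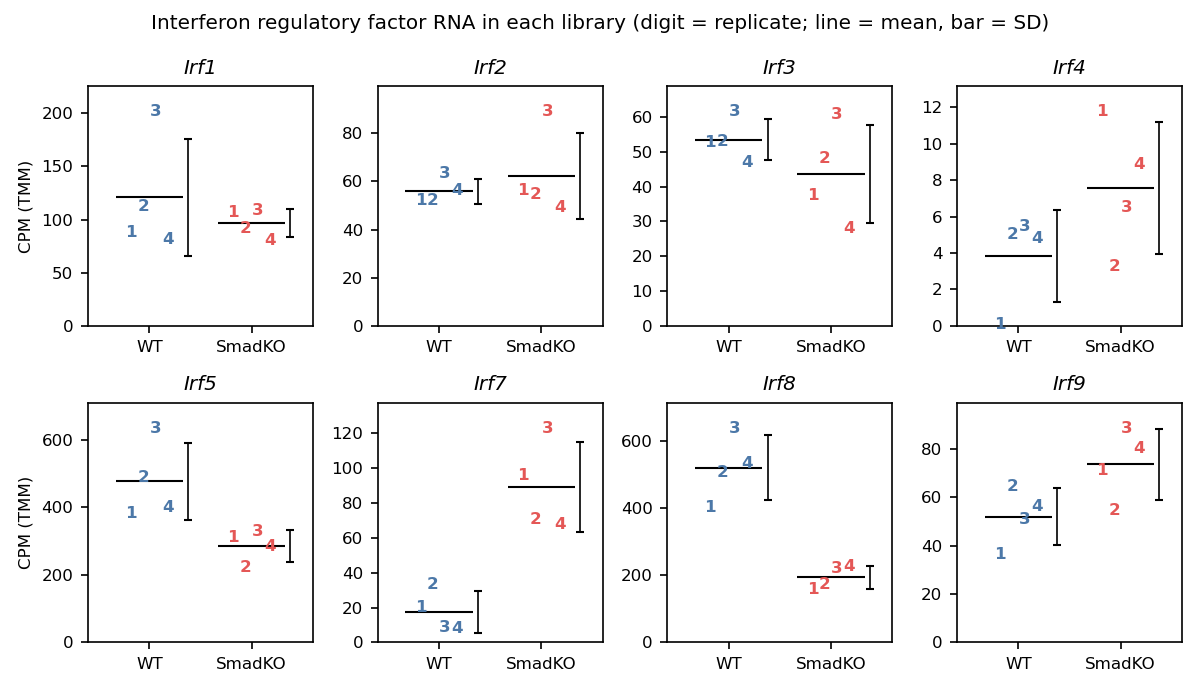
RNA of each interferon regulatory factor gene as CPM scaled by TMM (y axis, linear from 0) in the 4 WT and 4 SmadKO libraries, where each digit is the replicate number, the line is the group mean and the bar is 1 SD. *Irf8* lay at 403 to 638 CPM in controls and 157 to 227 CPM in mutants, *Irf7* at 7.77 to 33.2 and 67.6 to 123 CPM, and the groups of *Irf1*, *Irf2*, *Irf3*, *Irf4* and *Irf9* overlapped.

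*Irf8* lies on chromosome 8 at 120736358-120756694 (GRCm38, plus strand) and encodes the family member on which microglial development depends. It was measured at 403, 507, 638 and 532 CPM in controls 1 to 4 and at 157, 172, 219 and 227 CPM in mutants 1 to 4. Every control library lay above every mutant library, and the lowest control held more than the highest mutant by a margin larger than the spread among mutants. The means were 520.03 ± 96.8 CPM (SD, n = 4) and 194 ± 34.8 CPM (SD, n = 4), a log2 fold change of -1.42 with an SE of 0.20 and an adjusted p of 0.00184 by edgeR. With each library left out in turn the value stayed between -1.53 and -1.31, with adjusted p between 0.0021 and 0.00882. RNA of *Spi1*, which encodes PU.1, and of *Ighm*, an immunoglobulin RNA on the B cell list, also fell. *Ighm* was the 1 lower gene of 6 on that list, where 7.97% of all tested genes were lower, and the other 5 were not called. The summed level of the list was 476 to 761 CPM in controls and 79.7 to 122 CPM in mutants. Most of the fall in this sum was *Ighm* itself, at 411 to 701 CPM in controls and 32.2 to 56.2 CPM in mutants. Of 6 markers of dendritic cells, a cell type rich in *Irf8*, 5 were tested and none was called, and all 6 summed to 16.2 to 45.5 CPM in controls and 24.9 to 41.4 CPM in mutants. The part of other cells in the *Irf8* value was not tested.

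*Irf5* lies on chromosome 6 at 29526625-29541871 (GRCm38, plus strand), and its product acts below MyD88-dependent Toll-like receptors. Its level was 383, 489, 634 and 400.0 CPM in controls 1 to 4 and 309, 222, 329 and 283 CPM in mutants 1 to 4. The groups did not overlap, but control 1 and mutant 3 lay close. The means were 476 ± 115 CPM (SD, n = 4) in controls and 286 ± 46.6 CPM (SD, n = 4) in mutants, with a log2 fold change of -0.74, an SE of 0.21 and an adjusted p of 0.0481 by edgeR. This call sat at the threshold. With single libraries left out the log2 fold change was between -0.83 and -0.57 and the adjusted p between 0.0446 and 0.118, under 0.05 only without control 1. DESeq2 gave 0.01 and asking for 10 counts in every library gave 0.0374, but the call was lost with RLE factors (0.0552), library totals (0.0528), no count filter (0.0713) and both libraries numbered 1 left out (0.0708). Of the exon bases of *Irf5*, 14.15% (411 bases) also belong to exons of *Tnpo3* on the opposite strand, and the libraries were not stranded, so reads from those bases cannot be assigned. *Tnpo3*, a nuclear import receptor, was itself lower (56.2 ± 8.72 CPM against 32.3 ± 4.05 CPM, SD, n = 4 each, log2 fold change -0.80, SE 0.17, adjusted p = 0.0152), and how much of the *Irf5* value it carries was not tested.

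*Irf7* lies on chromosome 7 at 141262706-141266481 (GRCm38, minus strand). Its product is the member most closely tied to large interferon responses, and the gene is itself induced by interferon. It was measured at 19.9, 33.2, 8.51 and 7.77 CPM in controls 1 to 4 and at 95.5, 70.5, 123 and 67.6 CPM in mutants 1 to 4. Every mutant held more than any control, and controls 1 and 2 held more than controls 3 and 4. The means were 17.3 ± 11.9 CPM (SD, n = 4) and 89.1 ± 25.7 CPM (SD, n = 4), a log2 fold change of 2.36 with an SE of 0.48 and an adjusted p of 0.0128 by edgeR. Leaving out single libraries gave 2.14 to 2.89, with adjusted p between 0.00505 and 0.0339. With both libraries numbered 1 left out, in which neuron and myelin RNAs were highest, the log2 fold change was 2.41 and the adjusted p was 0.0506, which ended the call, while *Irf8* kept an adjusted p of 0.00728. Markers of T and NK cells moved the same way: 2 of 7 were higher and none lower (4.36% and 7.97% of all tested genes). The higher ones were *Cd3e* and *Trbc2*. The summed level was 8.84 to 32.2 CPM in controls and 44.6 to 113 CPM in mutants, with *Cd8a* at 0 in mutant 4. Of 6 monocyte markers none was called, where 12.3% of all tested genes were. The part of T and NK cells, or of other cells, in the *Irf7* value was not tested.

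The members that act beside these in the interferon response gave no call. *Irf9*, which acts below the interferon receptor, was at 36.3, 64.5, 50.8 and 56.4 CPM in controls 1 to 4 and at 71.2, 54.5, 88.6 and 80.4 CPM in mutants 1 to 4. Only mutant 2 fell within the control range, and the log2 fold change of 0.50 (SE 0.22) had an adjusted p of 0.167. *Irf3*, the constitutive sensor-activated factor, was at 52.6, 52.9, 61.5 and 47.0 CPM in controls and 37.4, 48.0, 60.8 and 28.0 CPM in mutants. The mutants spread over a wider range than the controls and overlapped them, with a log2 fold change of -0.30 (SE 0.24, adjusted p = 0.456).

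*Irf1* and *Irf2*, activator and repressor at shared sites, gave no call either. *Irf1* was at 88.2, 112, 201 and 81.6 CPM in controls and 107, 91.1, 109 and 80.6 CPM in mutants. Control 3 stood above all others, and the log2 fold change of -0.32 (SE 0.29, adjusted p = 0.513) became 0.043 without it. *Irf2* was at 52.1, 51.9, 63.3 and 56.2 CPM in controls and 56.4, 54.4, 88.9 and 49.3 CPM in mutants. Here mutant 3 stood above all others, and the log2 fold change of 0.16 (SE 0.20, adjusted p = 0.668) became -0.066 without it.

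*Irf4*, best known in lymphocytes and alternatively activated macrophages, was the lowest of the family. It was at 0.103, 4.999, 5.46 and 4.81 CPM in controls and at 11.8, 3.24, 6.49 and 8.86 CPM in mutants. Control 1 held only 4 counts, far below the other controls, and mutant 2 lay below those 3 controls. The log2 fold change was 0.98 with an SE of 0.85 (adjusted p = 0.5), and it was 0.29 without both libraries numbered 1.

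**Figure D2:**
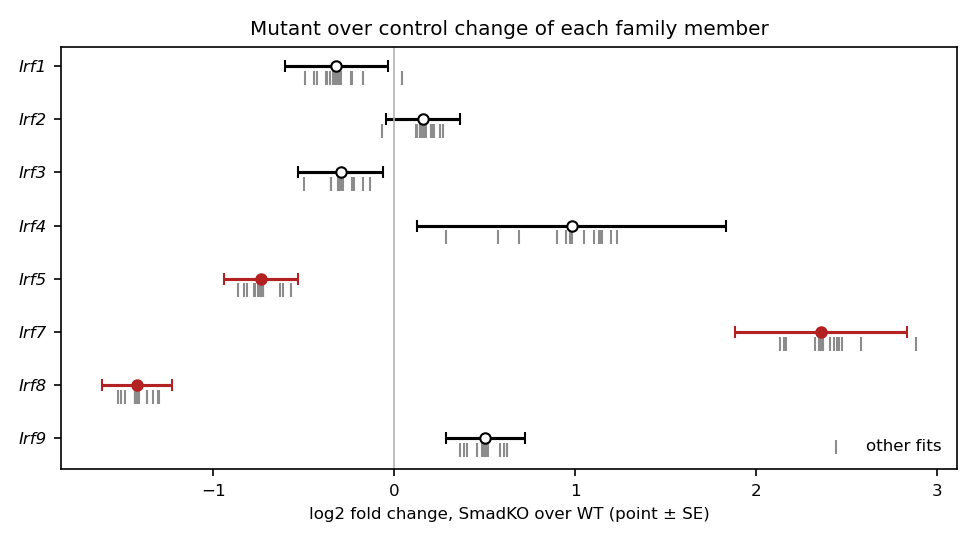
Log2 fold change of SmadKO over WT for each member (x axis) with its SE (bars), filled red where the adjusted p was under 0.05, and grey ticks for the same value under the other scalings, filters, tools and left-out libraries. *Irf8* (-1.42), *Irf5* (-0.74) and *Irf7* (2.36) kept their sides of 0 under each of these, whereas ticks of *Irf1* and *Irf2* lie on both sides.

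Levels between genes were compared as CPM per kilobase of exon. In controls the order by median was *Irf5* (153 CPM per kb), *Irf8* (73.7), *Irf1* (25.2), *Irf3* (15.3), *Irf9* (9.95), *Irf2* (7.32), *Irf7* (3.76) and *Irf4* (1.001). The ranges of the 4 controls overlapped between *Irf9* and *Irf2* and between *Irf2* and *Irf7*, and not between the other neighbours. In mutants the order was *Irf5* (102 CPM per kb), *Irf8* (27.8), *Irf1* (24.9), *Irf7* (21.99), *Irf9* (14.1), *Irf3* (12.4), *Irf2* (7.49) and *Irf4* (1.57). At these exon lengths *Irf8*, *Irf1* and *Irf7* then stood together, with overlapping ranges between neighbours, as did *Irf9* and *Irf3*. The ranges of *Irf3* and *Irf2* overlapped too, but *Irf3* lay above *Irf2* in each of the 4 mutants.

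The make-up of the family was taken as the share of each member in the summed CPM per kb, library by library. *Irf5* took 53.4% ± 1.47 (SD, n = 4) in controls and 46.8% ± 2.82 (SD, n = 4) in mutants. *Irf8* took 24.3% ± 2.56 (SD, n = 4) and 13.2% ± 2.48 (SD, n = 4). *Irf7* took 1.57% ± 1.08 (SD, n = 4) and 11.1% ± 1.67 (SD, n = 4), so that *Irf5* and *Irf8* together went from 76.8% to 79.4% of the family in controls to 57.4% to 65.0% in mutants. The ratio of *Irf8* to *Irf7* per kb was 8.18 to 40.2 in controls and 0.877 to 1.80 in mutants. The summed level of the family was 245 to 399 CPM per kb in controls and 175 to 252 in mutants, with mutant 3 inside the control range. These shares are a description with no test. The shares, the ratio and the order by level all depend on the gene lengths used. The exon union held 7055 bases for *Irf8* and 3776 for *Irf7*, and the longest transcript 3469 and 3240. For *Irf7* this union was 1 block as long as the whole gene, with no intron left out, and a shorter length would raise its level per kb. Over the longest transcript of each gene, *Irf8* took 31.5% in controls and 17.9% in mutants, and *Irf5* took 44.2% and 40.6%. By that length *Irf7* took 8.65% in mutants, below the 17.9% of *Irf8*.

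**Figure D3:**
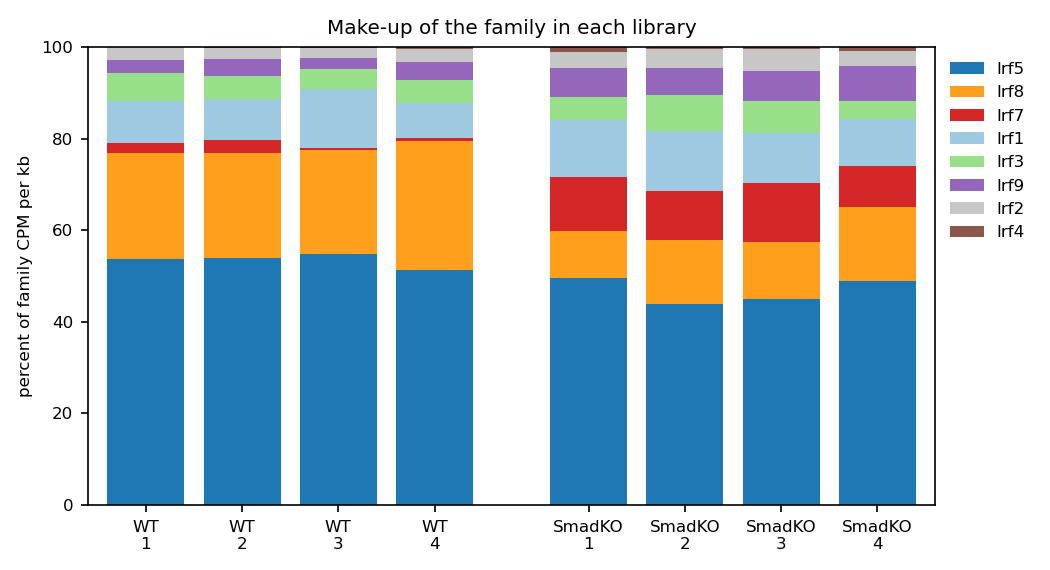
Share of each member in the summed CPM per kb of the 8 genes (y axis, percent) in each WT and SmadKO library (x axis), stacked to 100. The orange *Irf8* block is 22.7% to 28.1% of controls and 10.3% to 16.2% of mutants, and the red *Irf7* block is 0.565% to 2.81% and 8.99% to 12.9%.

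The upstream sequences of the 3 called members and of *Irf2* were read for short motifs of factors named above. Each line holds the 250 bases before the RefSeq start (GRCm38.p6), written 5′ to 3′ on the strand of the gene, with motif matches in capitals: TTCNNNGAA (the interferon gamma activated site, GAS), GGAAGT (the PU.1 core) and GAAANNGAAA (the ISRE core), each searched on both strands. *Irf8* is at chr8:120736108-120736357, *Irf7* at chr7:141266425-141266674 on the minus strand, *Irf5* at chr6:29526375-29526624 and *Irf2*, the member with an ISRE core, at chr8:46739495-46739744.
Irf8: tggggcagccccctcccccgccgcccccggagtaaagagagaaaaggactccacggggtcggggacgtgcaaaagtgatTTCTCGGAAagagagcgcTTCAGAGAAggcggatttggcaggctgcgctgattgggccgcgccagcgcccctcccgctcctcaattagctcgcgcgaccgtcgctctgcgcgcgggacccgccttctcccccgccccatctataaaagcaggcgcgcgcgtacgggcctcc
Irf7: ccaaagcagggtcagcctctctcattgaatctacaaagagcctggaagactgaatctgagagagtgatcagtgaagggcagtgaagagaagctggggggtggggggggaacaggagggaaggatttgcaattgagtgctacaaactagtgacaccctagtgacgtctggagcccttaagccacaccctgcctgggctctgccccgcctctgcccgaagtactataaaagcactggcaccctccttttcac
Irf5: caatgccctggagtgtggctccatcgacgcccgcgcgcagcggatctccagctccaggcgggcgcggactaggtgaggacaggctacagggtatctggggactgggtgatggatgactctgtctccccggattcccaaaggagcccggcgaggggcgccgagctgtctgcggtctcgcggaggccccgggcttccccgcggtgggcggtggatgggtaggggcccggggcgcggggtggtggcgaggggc
Irf2: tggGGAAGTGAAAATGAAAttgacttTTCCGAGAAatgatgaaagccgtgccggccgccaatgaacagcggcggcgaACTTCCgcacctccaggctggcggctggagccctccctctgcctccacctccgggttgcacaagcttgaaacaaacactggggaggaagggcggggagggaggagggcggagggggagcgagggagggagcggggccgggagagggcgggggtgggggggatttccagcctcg

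All 8 members had at least 1 window of 300 bases, from 250 before to 50 after a start, in the RefSeq table. *Irf8* held 2 GAS matches, from -171 to -163 and from -153 to -145 relative to the start, *Irf1* held 1 and *Irf2* held 1, where 9.55% of all genes with a window held any. The ISRE core was found for *Irf2*, where it directly follows a PU.1 core from -247 to -242, and for no other member, against 3.99% of all genes. A PU.1 core lay in windows of *Irf1*, *Irf2*, *Irf3* and *Irf5*, in *Irf5* from 39 to 44 after the start, and in 26.5% of all genes. The palindromic Smad box GTCTAGAC lay in no window of the family and in 0.248% of all genes. *Irf7* held none of the 4 motifs in its window. These matches are letters and not binding sites, and a missing match says only that the letters are not in the window.

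The sensors, adaptors and kinases that act above IRF3, IRF5 and IRF7 held more lower than higher calls. Of 18 tested genes, 4 were lower and none higher, where 7.97% and 4.36% of all tested genes were, and the median log2 fold change was -0.40. *Ifih1*, the RNA sensor MDA5 (0.91, SE 0.26, adjusted p = 0.0502), and *Tank*, an adaptor of TBK1 (0.83, SE 0.24, adjusted p = 0.0556), lay just past the threshold with every mutant above every control, and 2 genes were called higher with DESeq2, with library totals and with at least 10 counts in all libraries. *Sting1*, the adaptor of cytosolic DNA sensing, was at 494, 566, 843 and 792 CPM in controls and 76.2, 94.6, 92.6 and 85.8 CPM in mutants, with a log2 fold change of -2.95 (SE 0.21, adjusted p = 7.84e-05). Every mutant lay far below every control. *Cgas*, the DNA sensor above it, was lower by -1.09 (SE 0.28, adjusted p = 0.0346). *Ticam2*, the adaptor TRAM of Toll-like receptor 4, was lower by -1.77 (SE 0.29, adjusted p = 0.00434), and *Slc15a4*, which acts in endolysosomal Toll-like receptor signalling to IRF5, by -1.20 (SE 0.26, adjusted p = 0.0181). The 2 uncalled genes with the highest levels were *Irak1* (-0.09, SE 0.20, adjusted p = 0.82) and *Myd88* (-0.57, SE 0.16, adjusted p = 0.0527). *Myd88* also lay just past the threshold, with every mutant (at most 80.9 CPM) below every control (at least 87.9 CPM).

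Of 15 interferon ligand, receptor and JAK-STAT genes, 4 were higher and 1 lower (4.36% and 7.97% of all tested genes), with a median log2 fold change of 0.56. The share called lower was near that of all tested genes, and *Usp18* is also on the ISRE list. *Ifnar2*, a chain of the type I interferon receptor, was at 150.2, 188, 226 and 201 CPM in controls and 343, 322, 427 and 365 CPM in mutants, with a log2 fold change of 0.93 (SE 0.17, adjusted p = 0.00766). *Il10rb*, a receptor chain shared by interleukin 10 and type III interferons, rose by 1.22 (SE 0.20, adjusted p = 0.00461). The feedback inhibitors *Usp18* (2.67, SE 0.55, adjusted p = 0.0139) and *Socs1* (0.79, SE 0.19, adjusted p = 0.0253) rose as well. The lower gene was *Ifngr1*, the ligand-binding chain of the interferon gamma receptor (-0.97, SE 0.22, adjusted p = 0.0207), and *Ifngr2* was not called (-0.06, SE 0.16, adjusted p = 0.843), nor was *Jak1* (-0.69, SE 0.23, adjusted p = 0.0875). *Ifnb1* gave no call (1.16, SE 1.21, adjusted p = 0.58), at 0 to 1.69 CPM in controls and 0.259 to 4.33 CPM in mutants. Nor did *Ifng* (1.78, SE 0.80, adjusted p = 0.18), at 0.0839 to 2.29 CPM in controls and 1.78 to 6.80 CPM in mutants. Both levels were low, and a missing call does not show that these RNAs were unchanged.

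Of 14 DNA-binding partners and co-regulators, 3 were lower and 1 higher (7.97% and 4.36% of all tested genes), with a median log2 fold change of -0.26. The share called higher was near that of all tested genes. *Spi1* was at 433, 511, 566 and 511 CPM in controls and 338, 334, 372 and 361 CPM in mutants, a log2 fold change of -0.52 (SE 0.14, adjusted p = 0.0376). *Ikzf1*, the Ikaros factor that joins IRF4 and IRF8 at some sites, was lower by -1.60 (SE 0.20, adjusted p = 0.00109), and *Irf2bpl*, of the family of IRF2-binding proteins, by -1.41 (SE 0.16, adjusted p = 0.000806). *Batf2*, an AP-1 factor that pairs with IRF1 in macrophages, was higher by 2.40 (SE 0.48, adjusted p = 0.0125). *Irf2bp2*, an IRF2-binding co-repressor, was not called (-0.05, SE 0.22, adjusted p = 0.921).

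Most interferon-stimulated genes with ISRE control were higher in mutants. Of 27, 16 were called higher and none lower, where 4.36% and 7.97% of tested genes were, all 27 had a log2 fold change above 0, and the median was 1.91. *Oas2*, an antiviral oligoadenylate synthetase, was at 0, 1.48, 0.588 and 0.0807 CPM in controls and 17.5, 20.0, 29.2 and 9.66 CPM in mutants. Its log2 fold change was 5.14 (SE 1.07, adjusted p = 0.0146). Its relatives *Oasl2* (4.52, SE 0.66, adjusted p = 0.00267) and *Oasl1* (3.40, SE 0.42, adjusted p = 0.00108) rose too, as did *Rtp4* (3.40, SE 0.48, adjusted p = 0.00226), an interferon-induced inhibitor of flavivirus replication. *Trim30a* (0.66, SE 0.22, adjusted p = 0.0813) and *Ifi44* (2.84, SE 1.47, adjusted p = 0.239) were not called, and *Ifi44* was at 2.04 CPM in mutant 4 against 25.5 to 63.9 CPM in mutants 1 to 3. The summed level of the list was 205 to 489 CPM in controls and 1208 to 1522 CPM in mutants. The count was 13 to 17 with single libraries left out and 12 with both libraries numbered 1 left out. Of the 20 genes of this list with a promoter window, 13 held the ISRE core, 8 of 11 called genes and 5 of 9 uncalled ones, and the list was drawn up for that element. It was also drawn up with earlier results of these data known, so its share of calls is a description only.

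**Figure D4:**
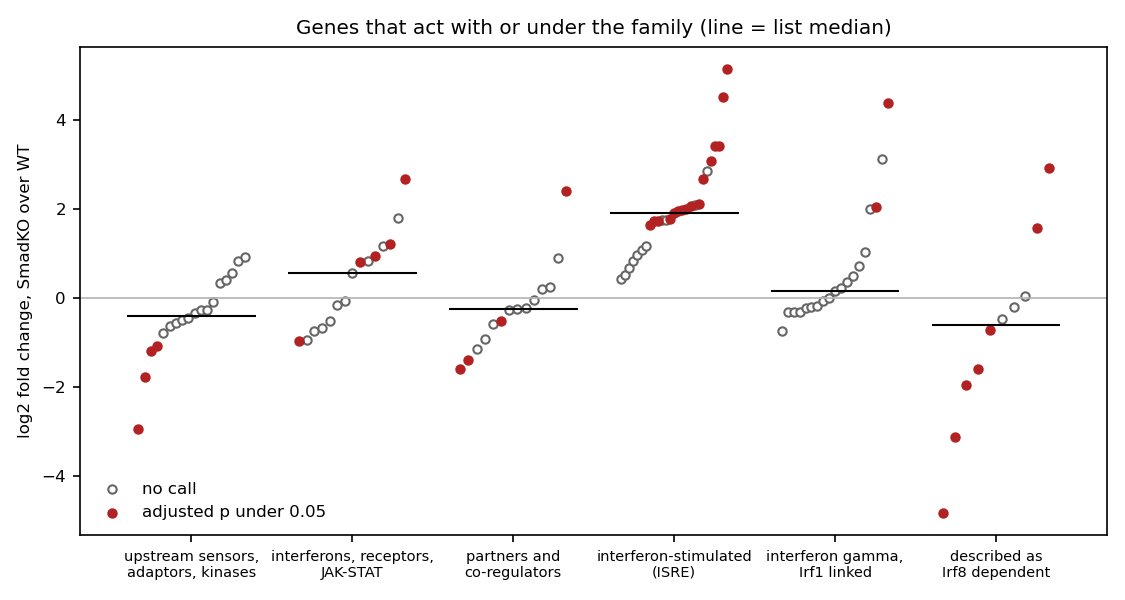
Log2 fold change of SmadKO over WT (y axis) of each tested gene of 6 lists (x axis, sorted by value within a list), filled red where the adjusted p was under 0.05, with a line at the list median. All 27 interferon-stimulated genes lie above 0 with a median of 1.91, while the upstream sensors, adaptors and kinases have a median of -0.40 and no filled point above 0.

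Genes linked to interferon gamma and IRF1 were called about as often as all tested genes. Of 19 tested, 2 were higher and none lower, where 4.36% and 7.97% of all tested genes were, or 12.3% in either direction. The median log2 fold change was 0.16. The higher ones were *Iigp1*, an immunity-related GTPase (4.38, SE 0.85, adjusted p = 0.0105), and *Ciita*, the activator of MHC class II genes (2.05, SE 0.44, adjusted p = 0.0175). *B2m* (0.48, SE 0.22, adjusted p = 0.182) and *Tapbp* (-0.31, SE 0.16, adjusted p = 0.244), both of antigen presentation on MHC class I, were not called. The difference between this list and the ISRE list was not tested.

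Genes described as dependent on IRF8 in myeloid cells did not all follow *Irf8*. Of 10 tested, 5 were lower and 2 higher (7.97% and 4.36% of all tested genes), with a median log2 fold change of -0.61. The lower ones were the purine receptor *P2ry12* (-4.84, SE 0.21, adjusted p = 9.76e-06), cystatin *Cst3* (-3.14, SE 0.26, adjusted p = 0.000122), the adaptor *Blnk* (-1.96, SE 0.26, adjusted p = 0.00164), the DNA receptor *Tlr9* (-1.61, SE 0.28, adjusted p = 0.00634) and *Irf5* itself. *Cybb*, the catalytic subunit of the phagocyte oxidase, was at 92.4, 89.7, 36.5 and 37.8 CPM in controls and 498, 404, 582 and 438 CPM in mutants, a rise of 2.91 (SE 0.36, adjusted p = 0.00107). *P2rx4*, an ATP-gated channel, rose by 1.57 (SE 0.19, adjusted p = 0.000944). *Klf4* (0.03, SE 0.34, adjusted p = 0.968) and *Aif1* (-0.20, SE 0.21, adjusted p = 0.593) were not called. *P2ry12* and *Aif1* are also on the list of microglia markers.

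The genes whose profile over the 8 libraries lay nearest to each called member were ranked among 9962 genes with a mean of at least 10 CPM, by the root mean square distance of log2 CPM centred on the control mean. Nearest to *Irf8* were the kinase genes *Bmp2k* (distance 0.0808) and *Vrk1* (0.121) and the vesicle transport gene *Sft2d1* (0.134). Nearest to *Irf5* were *Washc4* (0.0515), *Tmc6* (0.0953) and *Rap1b* (0.104). *Irf7* had no neighbour as near, and those nearest were *Slfn2* (0.289), *Dapk1* (0.314) and *Clec7a* (0.348). The distances are in log2 units and are given as a description with no test.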

How the data were processed

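Reads had been aligned by Rsubread (mm10), and the authors deposited raw counts per gene from featureCounts, not normalized; versions, annotation and strand setting are not given in the sources used here. The labels name a single-end unstranded Nextera XT kit, and the methods of the study a paired-end one. The methods also name another deposit for these mice, and genotype and cell type were the ground for treating both as 1 experiment. The submitters' processing notes name DESeq2 1.28, and the deposited comparison table was not used. All 8 columns of counts were mapped by title.

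A gene was tested where 4 or more of the 8 libraries held 10 or more counts, with edgeR 4.0.16 in R 4.3.3 (TMM, glmQLFit, glmQLFTest, no block), with Benjamini-Hochberg adjustment over all 20153 and a call at an adjusted p under 0.05. The script was tested on simulated data. CPM used TMM-scaled totals, with a biological coefficient of variation of 0.542, and spread between mice and not depth set the precision. Alternatives were DESeq2 1.42.0, RLE factors, library totals, other filters, a replicate block and left-out libraries. Replicates are taken as separate mice. Levels per kb used exon unions of GENCODE M21 (GRCm38), and promoters came from RefSeq (GRCm38.p6). Symbols matched 55394 of 55573 identifiers.

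Members and gene lists were chosen with earlier results of these data known. Within each list, the text names up to 4 called genes per direction with the largest change among those with mean CPM of at least 1, and the 2 uncalled genes with the highest mean; the markers, *Tnpo3*, *Ifih1*, *Tank*, *Ifnb1* and *Ifng* were named after their values were seen. Marker lists of neurons, astrocytes, oligodendrocytes and endothelial cells gave no call. Of 6 neutrophil markers 2 were lower, where 7.97% of all tested genes were. The neutrophil markers summed to 548 to 2565 CPM in controls and 259 to 804 CPM in mutants, and the part of such cells in any member's value was not tested. 1 further gene of the family and 1 gene named by this rule are not reported here.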

Additional observations from a re-analysis of the deposited data

Results flagged for a closer look

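In 4 of 90 groups checked (members and named genes, controls and mutants apart), 1 library stood apart from the other 3 by Dixon's test, where chance gives about 1 in 20. *Irf4* was at 0.103 CPM in control 1 against 4.81 to 5.46 CPM in the other controls. *Trim30a* was at 26.8 CPM in control 1 against 36.6 to 37.0 CPM in the other controls. *Batf2* was at 20.6 CPM in mutant 4 against 9.69 to 10.7 CPM in mutants 1 to 3. *Ikzf1* was at 22.6 CPM in mutant 4 against 29.0 to 30.0 CPM in mutants 1 to 3.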

How the results depend on the processing

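*Irf8* was called under every alternative run, and *Irf7* under all but that with both libraries numbered 1 left out, an alternative chosen after seeing the data (2.41, adjusted p = 0.0506). The *Irf5* call held with DESeq2, with at least 10 counts in all libraries and without control 1, and was lost with RLE factors (-0.73), library totals (-0.61), no count filter (-0.75), the replicate block (-0.72) and both libraries numbered 1 left out (-0.87). Single libraries left out gave -0.83 to -0.57 for *Irf5*, and 1 to 2 members lower. With the 5 settings named, 1 member was lower, and with both libraries numbered 1 left out 0 were higher. Single libraries left out gave -0.44 to 0.043 for *Irf1*, whose sign turned without control 3, and -0.066 to 0.25 for *Irf2*, whose sign turned without mutant 3, and *Irf4* could not be fitted with at least 10 counts in all libraries. Library totals raised the median of all genes by 0.12 and changed no direction of a member. All genes called higher and lower numbered 878 and 1607, with DESeq2 2089 and 2662, and with single libraries left out 525 to 1024 and 1005 to 1587. Upstream genes called higher numbered 2 with DESeq2, at least 10 counts in all libraries or library totals, and 0 to 1 with single libraries left out (lower: 2 to 4). Receptor genes called lower numbered 2 with DESeq2 or the replicate block, and 0 to 1 with libraries left out. Partner genes called lower numbered 5 with DESeq2 or the replicate block. Interferon gamma genes called lower numbered 1 with DESeq2, and higher 1 with at least 10 counts in all libraries or the replicate block and 0 without both libraries numbered 1. Over the longest transcript, *Irf8* took 31.5% and 17.9% of the family in controls and mutants, *Irf5* 44.2% and 40.6%, and *Irf7* 8.65% in mutants. Same-numbered libraries deviated together with correlations of 0.166, 0.0183, 0.144 and 0.114, and controls 1, 3 and 4 but not control 2 correlated best with the mutant of their own number. Pairs were to be taken only where all 4 correlations passed 0.1, so the numbers were not used as pairs.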
